A study of Mus musculus with 4 samples.

Results

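Of 22739 named genes in the deposited tables, 10 mesenchymal and epithelial-mesenchymal transition (EMT) genes were followed: Snai1, Zeb1, Vim, Fn1, Cdh2, Tagln, Acta2, Thbs1, Col1a1 and Col1a2. The set is a list of names, made without a threshold on values but with earlier results of these data known. Each was found as a single row. The source was CCE, a 129SV mouse line of embryonic stem (ES) cells cultured with serum on gelatin and with LIF, a cytokine that keeps ES cells undifferentiated. Polyadenylated RNA was read in 2 libraries of cells with hairpin RNA to Tex10 (shTex10) and 2 libraries of control cells with hairpin RNA to luciferase (shLuci), a target that mouse cells lack. A single hairpin name is given per target, so off-target effects of that RNA and Tex10 loss cannot be told apart. The time after knockdown is not given in the sources used here.

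EMT is the programme by which cells joined in an epithelial sheet loosen their junctions and take on a migratory, mesenchymal form. Transcription factors of the SNAIL and ZEB families bind E-box sequences in genes such as Cdh1 (E-cadherin) and repress them, while fibronectin, fibrillar collagens, vimentin filaments and contractile proteins become abundant. ES cells express E-cadherin and grow as compact colonies, so the 10 genes are known mainly from other tissues and from cells leaving the pluripotent state.

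The 10 genes did not move as a group. Snai1, Thbs1, Tagln and Acta2 rose in shTex10 and Zeb1, Col1a2 and Fn1 fell, while Vim, Cdh2 and Col1a1 did not pass the test. The test was limma on log2(FPKM + 1) over the 11883 genes averaging 1 FPKM or more, with Benjamini-Hochberg adjustment and a threshold of 0.05, and all log2 changes are shTex10 minus shLuci on that scale, which understates the change of low genes. By definition FPKM is the number of fragments per kilobase of transcript, scaled to the mapped total of the library. Levels of different genes can be compared only roughly, since how reads matching several genes were divided is not given. Which total the deposited values were scaled to is not given in the sources used here. All 10 genes passed the filter, and each had a mean of at least 1 FPKM in each group. The test called 4 of the 10 higher, against 19.8% of all genes tested, and 3 lower, against 31.8%. Together 7 of 10 were called, against 51.6%. For 9 of the 10 genes the shTex10 and shLuci libraries did not overlap, which also held for 76.4% of all genes tested. In 5 of the 10 genes the lower shTex10 value exceeded the higher shLuci value, against 28.3% of all, and in 4 of them the reverse held, against 48.1%. The median log2 change was 0.30 over the 10 genes and -0.14 over all genes tested.

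**Figure D1:**
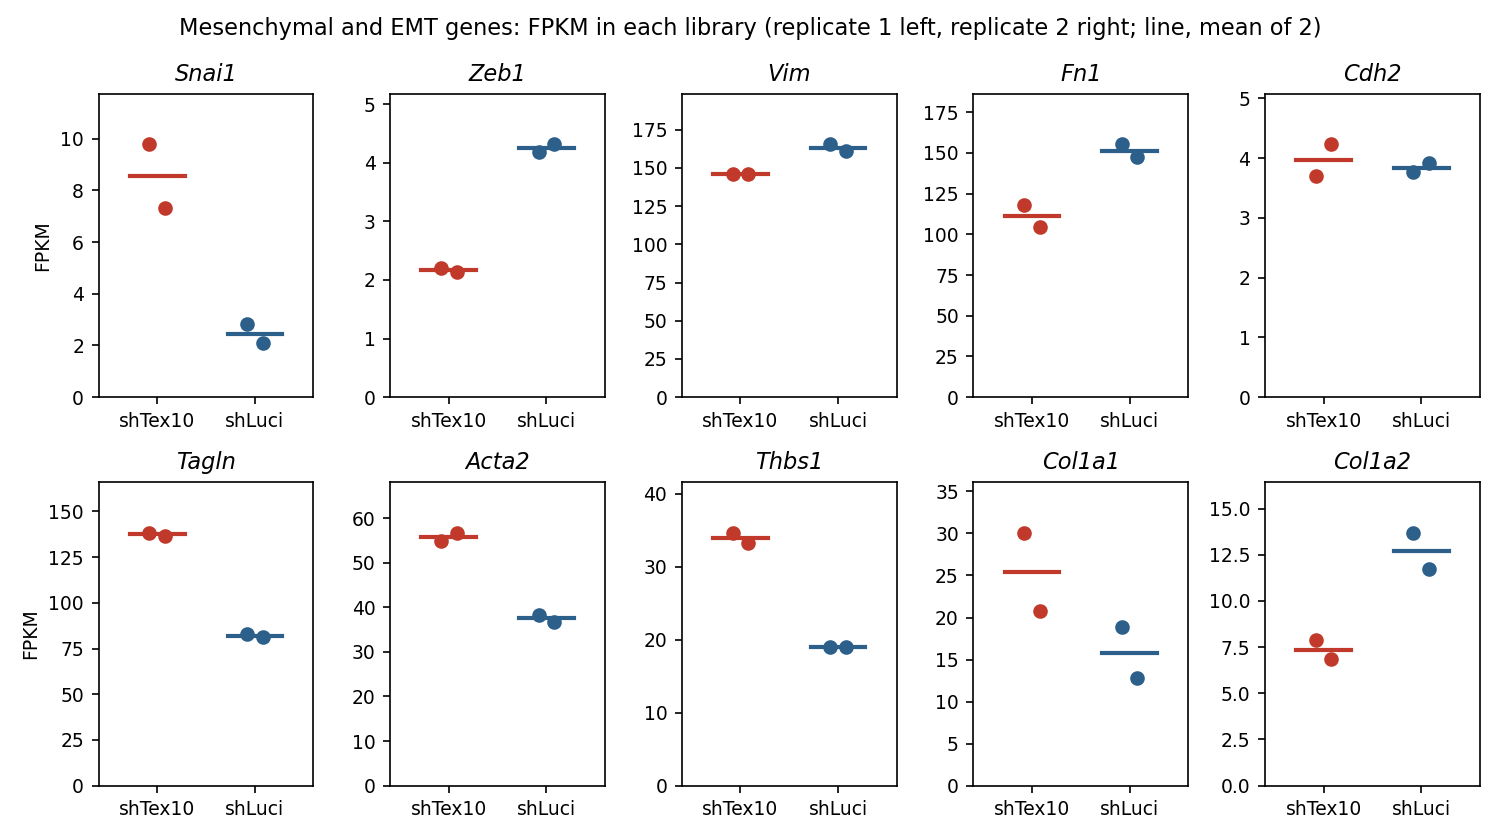
FPKM of the 10 genes in each library, with shTex10 left of shLuci in every panel, a point per library and a line at the mean of 2; each panel has its own FPKM axis, which starts at 0. Snai1, Tagln, Acta2, Thbs1 and Col1a1 lie higher in both shTex10 libraries, Zeb1, Vim, Fn1 and Col1a2 lie lower, and the groups overlap for Cdh2.

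The knockdown was seen in the libraries: Tex10 measured 11.6 and 13.4 FPKM in shTex10, against 77.3 and 82.1 FPKM in shLuci. The deposited tables hold no read totals. The smallest values of unnamed rows, taken as single reads, put the relative depth of the libraries between 82.9% and 100% of shLuci replicate 1, a rough estimate. FPKM summed over named genes was 525878 and 537692 in the shTex10 libraries and 613642 and 632067 in the shLuci libraries, so part of any change depends on the scaling. Rescaling each library to the same sum over named genes moved the median log2 change of all genes to 0.06, and the share of calls that were higher to 62.9%, against 38.3% as deposited. It was 73.4% when each library's total over named and unnamed rows was equalised (the all-row rescaling), which called 7.51% of genes. The series design calls the libraries biological replicates and does not say whether cultures were separate, and p-values cover only the library-to-library spread, which may be technical. An exact permutation test of 2 against 2 cannot go below p = 0.33. Fits that leave out a library have 1 residual degree of freedom and an arm with a lone library, assumed to vary like the others. In them limma took all or nearly all of each gene's error from the trend over all genes (prior degrees of freedom of 41.8 or more), so their p-values say little of a gene's own spread. In bulk RNA, fewer cells of a type and less RNA per cell cannot be told apart.

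Snai1 and Zeb1, the pair of EMT transcription factors among the 10, moved in opposite directions. Snai1 encodes SNAIL, a zinc-finger repressor of Cdh1. It measured 9.79 and 7.32 FPKM in the shTex10 libraries, against 2.83 and 2.09 FPKM in the shLuci libraries. The lower shTex10 library lay well above the higher shLuci library, and the mean was 8.55 ± 1.75 FPKM in shTex10 and 2.46 ± 0.526 FPKM in shLuci (SD, n = 2 each), a 3.48-fold difference. The log2 change was 1.46 (SE 0.17, limma, Benjamini-Hochberg adjusted p = 0.00162), and 307 of the genes tested had a larger one. Zeb1 (XLOC_012770) encodes a zinc-finger homeobox repressor of epithelial genes, and measured 2.20 and 2.14 FPKM in shTex10, against 4.18 and 4.32 FPKM in shLuci. The groups were far apart compared with the spread within them, and 51.1% of the shLuci level remained in shTex10 (log2 change -0.73, SE 0.09, limma, Benjamini-Hochberg adjusted p = 0.00189). Both are low transcripts in these cells, and their order of level differed between the groups: Snai1 was above Zeb1 in both shTex10 libraries and below it in both shLuci libraries.

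In the files Snai1 (XLOC_015357) spans mm9 chr2:167350710-167368316, a span that an unnamed row shares, at 1.04 and 1.18 FPKM in shTex10 and 0.253 and 0.232 FPKM in shLuci. The promoter of Snai1 is shown because its transcript had the largest log2 change of the 10 genes. The window is RefSeq's on build GRCm38, chr2:167537945-167538244, plus strand, from 250 bases before to 50 bases after the annotated start, and capitals mark an E-box of the form bound by SNAIL and ZEB proteins.
Snai1: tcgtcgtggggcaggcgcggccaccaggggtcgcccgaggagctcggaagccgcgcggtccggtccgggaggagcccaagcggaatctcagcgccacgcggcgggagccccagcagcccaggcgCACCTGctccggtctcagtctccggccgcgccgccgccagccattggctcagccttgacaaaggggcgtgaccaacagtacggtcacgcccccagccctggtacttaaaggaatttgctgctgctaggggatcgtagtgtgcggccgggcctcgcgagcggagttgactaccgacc
This E-box, CACCTG, begins 126 bases before the start and is found on either strand in 20.2% of 32851 RefSeq promoter windows of 300 bases. Such a match is a description of letters and not a binding site.

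Other genes listed as EMT transcription factors were mostly lower. Of 13 listed, 7 were tested, and of these 4 fell, 1 rose and 2 did not pass, with a median log2 change of -0.60 against -0.14 over all genes. Among all genes tested, 31.8% were called lower and 19.8% higher. Tcf4, which encodes an E-box-binding helix-loop-helix factor, fell to 2.57 and 3.14 FPKM in shTex10, against 6.02 and 6.76 FPKM in shLuci. Klf8, a Krüppel-like factor gene, fell by 0.60 on the log2 scale (SE 0.09, limma, Benjamini-Hochberg adjusted p = 0.00390). Tcf3, a related helix-loop-helix gene, also fell (log2 change -0.74), a call that was lost after the named-gene rescaling (limma, Benjamini-Hochberg adjusted p = 0.0565). Snai3, the lesser-known SNAIL family gene, rose with Snai1, to 13.0 and 11.8 FPKM in shTex10, against 4.55 and 4.73 FPKM in shLuci, and was above Snai1 in each library. Snai2, the SLUG gene, lay below the filter at 0.851 ± 0.0425 FPKM in shTex10 and 0.647 ± 0.101 FPKM in shLuci. Zeb2 did not pass the test, at 1.21 ± 0.0591 FPKM in shTex10 and 1.58 ± 0.0194 FPKM in shLuci (n = 2 each), but was called lower under quantile normalization (log2 change -0.40, limma, Benjamini-Hochberg adjusted p = 0.0146). Twist1 did not pass either, at 3.30 ± 0.363 FPKM in shTex10 and 3.06 ± 0.0306 FPKM in shLuci, and its sign turned under quantile normalization (-0.04). Zeb1 itself spans mm9 chr18:5491498-5775469.

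Cdh2 and Vim, the classic protein markers of mesenchymal cells, showed no change past the test. Cdh2 (XLOC_013094, mm9 chr18:16747385-16967580) encodes N-cadherin, an adhesion receptor of mesenchymal and neural cells. It measured 3.70 and 4.23 FPKM in shTex10, against 3.76 and 3.92 FPKM in shLuci, and the groups overlapped (log2 change 0.04, 95% interval -0.21 to 0.28, limma, Benjamini-Hochberg adjusted p = 0.784). The interval holds changes of either sign, and the sign turned negative under quantile normalization (-0.04) and without shTex10 replicate 2 (-0.04). Vim (XLOC_014478, mm9 chr2:13495937-13504453) encodes vimentin, the intermediate filament protein of mesenchymal cells, and was abundant in these ES cells. It measured 146.1 and 146.0 FPKM in shTex10, against 165.6 and 160.8 FPKM in shLuci. Both shTex10 libraries were lower, by a small step that did not pass (log2 change -0.16, 95% interval -0.36 to 0.05, limma, Benjamini-Hochberg adjusted p = 0.158). Relative to the median of all genes the change was -0.02, and under quantile normalization (0.13) and the named-gene rescaling (0.07) it was positive.

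Their epithelial counterparts stood higher. Cdh1 measured 173.8 and 173.4 FPKM in shTex10, against 118.3 and 119.2 FPKM in shLuci (log2 change 0.54, SE 0.08, limma, Benjamini-Hochberg adjusted p = 0.00368). The Cdh2/Cdh1 ratio within a library, which multiplying that library by a constant cannot alter, was 0.0213 and 0.0244 in shTex10, against 0.0318 and 0.0329 in shLuci. Krt8, a keratin gene of simple epithelia, measured 293.7 and 283.7 FPKM in shTex10, against 131.8 and 131.6 FPKM in shLuci. The Vim/Krt8 ratio was 0.498 and 0.515 in shTex10, against 1.26 and 1.22 in shLuci, so vimentin transcript exceeded keratin 8 transcript in the control libraries and was the lower of the pair in the knockdown libraries. Neither ratio overlapped between groups, and both shifted away from the mesenchymal gene in shTex10.

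**Figure D2:**
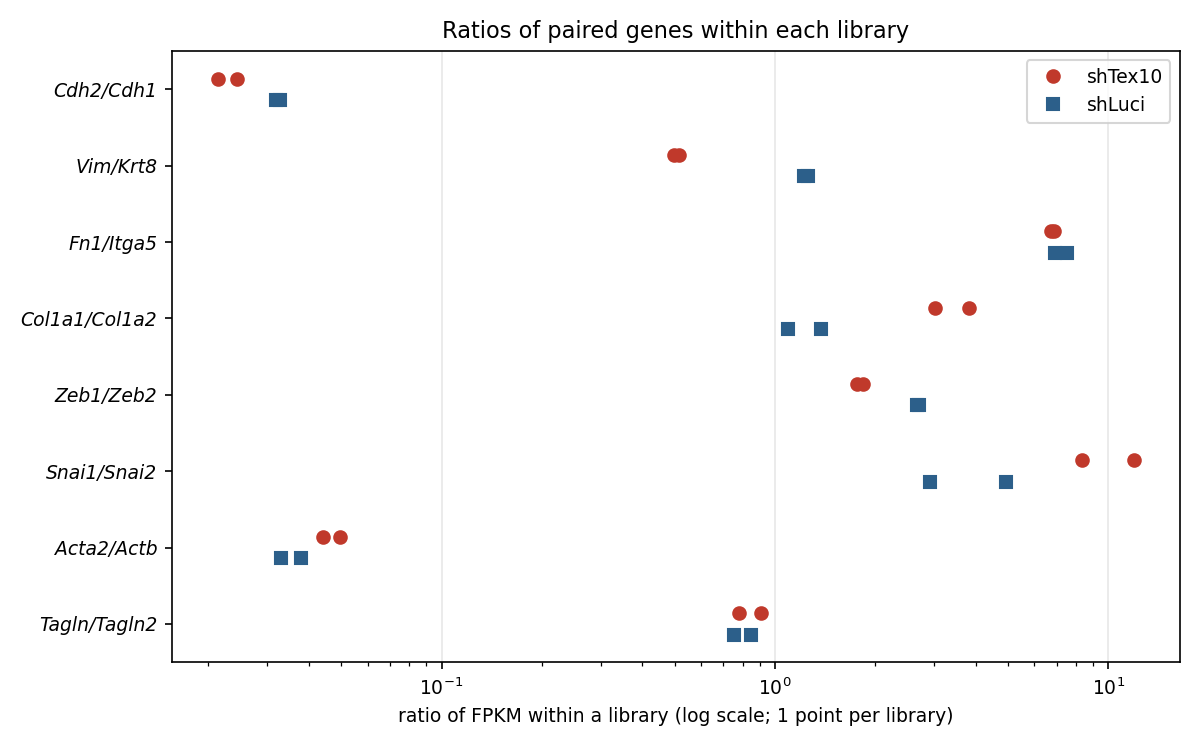
Ratios of FPKM of 8 gene pairs within each library on a log axis, a point per library, with shTex10 (circles) above shLuci (squares) in each row. The Vim/Krt8 and Cdh2/Cdh1 ratios lie lower in shTex10, the Col1a1/Col1a2 and Snai1/Snai2 ratios lie higher, and the Tagln/Tagln2 ratio overlaps between groups.

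Of 20 listed epithelial genes 19 were tested, and 13 rose, 1 fell and 5 did not pass (median log2 change 0.54, against -0.14 over all genes). Shares over all genes tested were 19.8% higher and 31.8% lower. Crb3, a gene of the apical polarity complex, rose to 14.7 and 12.4 FPKM in shTex10, against 3.67 and 3.57 FPKM in shLuci. Krt19 rose to 68.2 and 72.4 FPKM in shTex10, against 22.8 and 23.2 FPKM in shLuci, and Krt18, the partner of Krt8 in simple epithelia, averaged 236 ± 3.76 FPKM in shTex10 and 112 ± 7.41 FPKM in shLuci (n = 2 each). The gene that fell was Klf4, a factor of epithelia and of naive ES cells, at 25.8 ± 0.454 FPKM in shTex10 and 34.9 ± 1.64 FPKM in shLuci (n = 2 each). Its call was lost after the named-gene rescaling (limma, Benjamini-Hochberg adjusted p = 0.134) and with quantile normalization (0.0586). Its log2 change was -0.42 as deposited and -0.37 without shLuci replicate 1. Among 10 listed cadherins and catenins, 6 were tested, and 2 rose, 0 fell and 4 did not pass (median log2 change 0.24). Cdh3, the P-cadherin gene, was the other riser beside Cdh1, at 44.2 and 37.8 FPKM in shTex10, against 10.7 and 9.75 FPKM in shLuci. The intermediate filament genes listed beside Vim all rose where tested, 8 of 9 listed, with a median log2 change of 1.10. Prph, the peripherin gene of peripheral neurons, rose to 25.8 and 26.5 FPKM in shTex10, against 5.96 and 6.71 FPKM in shLuci. Sync, the syncoilin gene of muscle, measured 2.70 and 2.97 FPKM in shTex10 and 0.601 and 0.487 FPKM in shLuci, and only its shTex10 values brought it over the filter.

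The contractile genes Acta2 and Tagln rose together. Acta2 encodes smooth muscle alpha-actin, a marker of myofibroblasts. It measured 54.9 and 56.7 FPKM in shTex10, against 38.2 and 36.8 FPKM in shLuci. The groups were clearly separate, with means of 55.8 ± 1.31 FPKM in shTex10 and 37.5 ± 0.986 FPKM in shLuci (SD, n = 2 each; log2 change 0.56, SE 0.08, limma, Benjamini-Hochberg adjusted p = 0.00377). Acta2 shares nearly identical coding sequence with other actin genes, and how reads that match several of them were divided is not given in the sources used here, so its value is uncertain. Tagln encodes transgelin (SM22), an actin-bundling protein of smooth muscle. It measured 138.4 and 136.4 FPKM in shTex10, against 82.7 and 81.3 FPKM in shLuci, a 1.68-fold difference with little spread within groups (log2 change 0.74, SE 0.08, limma, Benjamini-Hochberg adjusted p = 0.00146). Tagln stood above Acta2 in every library. Rows for Pcsk7 and Rnf214 share its locus, and both stayed far below it: Pcsk7 measured 5.84 and 4.75 FPKM in shTex10 and 5.36 and 4.84 FPKM in shLuci, and Rnf214 measured 5.90 and 5.65 FPKM in shTex10 and 5.42 and 5.48 FPKM in shLuci.

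Of the abundant cytoskeletal relatives of these genes, Tagln2 rose and Actb did not pass the test. Actb, the gene of cytoplasmic beta-actin, measured 1243 and 1144 FPKM in shTex10 and 1159 and 969.4 FPKM in shLuci, which overlap, and it was called higher under quantile normalization (log2 change 0.43, limma, Benjamini-Hochberg adjusted p = 0.0311). The Acta2/Actb ratio was 0.0442 and 0.0496 in shTex10, against 0.0330 and 0.0380 in shLuci, without overlap. Tagln2, the transgelin gene of non-muscle cells, rose by about as much as Tagln, to 177.7 and 150.1 FPKM in shTex10, against 110.1 and 96.3 FPKM in shLuci. The Tagln/Tagln2 ratio was therefore 0.779 and 0.909 in shTex10 and 0.751 and 0.845 in shLuci, and overlapped.

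Acta2 (XLOC_014139) lies at mm9 chr19:34314825-34329863 and Tagln (XLOC_028651) is assigned mm9 chr9:45671773-45744141. The promoter of Acta2 is shown because serum response factor is known to act on contractile genes through CArG boxes. The RefSeq window is GRCm38 chr19:34255324-34255623, minus strand, and capitals mark 3 matches.
Acta2: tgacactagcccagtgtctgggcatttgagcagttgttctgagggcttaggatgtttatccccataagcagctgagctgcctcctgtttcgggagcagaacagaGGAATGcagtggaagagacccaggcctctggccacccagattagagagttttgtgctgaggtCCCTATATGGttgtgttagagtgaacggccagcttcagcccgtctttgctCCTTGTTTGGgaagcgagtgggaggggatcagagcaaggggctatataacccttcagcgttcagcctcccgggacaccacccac
From 5′ to 3′ these are GGAATG, the core of TEAD factor motifs, and a pair of CArG boxes that each hold 1 G or C inside, CCCTATATGG beginning 84 bases and CCTTGTTTGG beginning 34 bases before the start. The strict CArG box, searched on both strands, was in 1.63% of windows and in none of the 4 windows of the 10 genes that the table holds. The looser form, searched after the strict form gave no match, was in 8.5% of windows, and GGAATG was in 14.7%. No match overlapped another.

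Of 27 listed actin and contractile genes, 24 were tested, and 10 rose, 2 fell and 12 did not pass, with a median log2 change of 0.20 against -0.14 over all genes. Among all genes tested, 19.8% were called higher and 31.8% lower. Cald1, the gene of caldesmon, which binds actin and tropomyosin, rose to 97.5 and 110.8 FPKM in shTex10, against 36.0 and 39.8 FPKM in shLuci. Tpm1, an alpha-tropomyosin gene, rose to 301.5 and 354.4 FPKM in shTex10, against 142.2 and 168.6 FPKM in shLuci. Cnn1, the gene of calponin, a smooth muscle protein, rose to 7.74 and 8.79 FPKM in shTex10, against 3.84 and 4.42 FPKM in shLuci. Lmod1, the leiomodin gene, measured 1.80 and 1.49 FPKM in shTex10, against 0.568 and 0.338 FPKM in shLuci, and it reached the filter only through shTex10. The 2 that fell were Tpm3, another tropomyosin gene (log2 change -0.57), and Smtn, the smoothelin gene (log2 change -0.44). Smtn lost its call after the named-gene rescaling (limma, Benjamini-Hochberg adjusted p = 0.151), and Tpm3 under quantile normalization (0.141). The log2 change of Smtn was -0.37 without shTex10 replicate 2 and -0.37 without shLuci replicate 1.

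Transcripts of serum response factor and its myocardin-family partners did not pass the test. Srf measured 19.1 and 14.6 FPKM in shTex10 and 22.4 and 16.5 FPKM in shLuci, with overlapping groups (log2 change -0.19, 95% interval -0.65 to 0.26). The sign of that change was positive after the named-gene rescaling (0.02) and without shLuci replicate 1 (0.02). Mkl1 measured 8.27 and 6.75 FPKM in shTex10 and 7.22 and 6.36 FPKM in shLuci, and Mkl2 measured 7.11 and 6.31 FPKM in shTex10 and 5.69 and 5.86 FPKM in shLuci. After the named-gene rescaling Mkl2 was called higher (log2 change 0.38, limma, Benjamini-Hochberg adjusted p = 0.0313). Myocd, the muscle-restricted member, was near 0 in all libraries, at 0.101 and 0.172 FPKM in shTex10 and 0.0390 and 0.0783 FPKM in shLuci.

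Among the matrix genes, Thbs1 rose, Fn1 and Col1a2 fell, and Col1a1 did not pass. Thbs1 (XLOC_014997, mm9 chr2:117937620-117952869) encodes thrombospondin 1, a secreted glycoprotein that activates latent TGF-beta. It measured 34.7 and 33.2 FPKM in shTex10, against 18.9 and 19.0 FPKM in shLuci. Replicates were nearly equal in both groups, and the 1.79-fold difference was far larger than their spread (log2 change 0.81, SE 0.09, limma, Benjamini-Hochberg adjusted p = 0.00124). Fn1 (XLOC_000851, mm9 chr1:71632046-71699808) encodes fibronectin, the main adhesive protein of the early matrix. It measured 117.8 and 104.4 FPKM in shTex10, against 155.4 and 147.5 FPKM in shLuci, and was the third most abundant of the 10 transcripts in shTex10 and the second in shLuci. It fell by 0.45 on the log2 scale (SE 0.10, limma, Benjamini-Hochberg adjusted p = 0.0133), or by 0.31 relative to the median of all genes. The call was lost after the named-gene rescaling (log2 change -0.22, limma, Benjamini-Hochberg adjusted p = 0.148) and with quantile normalization (-0.16, 0.246). Without shTex10 replicate 2 the log2 change was -0.36.

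Col1a1 and Col1a2 encode the alpha chains that assemble into type I collagen, and only the Col1a2 transcript passed the test, on the lower side. Col1a1 (XLOC_003837, mm9 chr11:94797504-94814357) measured 30.1 and 20.8 FPKM in shTex10, against 18.8 and 12.8 FPKM in shLuci. Both shTex10 libraries were higher, but each group had a wide spread, and the change did not pass (log2 change 0.65, SE 0.23, 95% interval 0.08 to 1.23, limma, Benjamini-Hochberg adjusted p = 0.0607). It passed narrowly after the named-gene rescaling (limma, Benjamini-Hochberg adjusted p = 0.0403), with median scaling (0.0416) or quantile normalization (0.0422). The log2 change was 0.39 without shTex10 replicate 1, 0.91 without shTex10 replicate 2, 0.91 without shLuci replicate 1 and 0.39 without shLuci replicate 2. These fits take their errors from other genes, and so are no sign that the change of Col1a1 exceeds its own spread. That spread ran the same way in both groups, with replicate 1 over replicate 2 at 1.45 in shTex10 and 1.47 in shLuci. No label says whether the replicate numbers pair libraries. Col1a2 (XLOC_021951, mm9 chr6:4455696-4491543) fell to 7.87 and 6.87 FPKM in shTex10, against 13.7 and 11.7 FPKM in shLuci (log2 change -0.71, SE 0.12, limma, Benjamini-Hochberg adjusted p = 0.00503). The groups did not overlap, and 57.9% of the shLuci level remained. The Col1a1/Col1a2 ratio was 3.83 and 3.02 in shTex10, against 1.38 and 1.09 in shLuci, apart by more than their spread.

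The Col1a2 promoter is printed as that of the collagen gene that fell. It is the RefSeq window GRCm38 chr6:4505368-4505667, plus strand, with a CArG box that holds 1 G or C inside in capitals.
Col1a2: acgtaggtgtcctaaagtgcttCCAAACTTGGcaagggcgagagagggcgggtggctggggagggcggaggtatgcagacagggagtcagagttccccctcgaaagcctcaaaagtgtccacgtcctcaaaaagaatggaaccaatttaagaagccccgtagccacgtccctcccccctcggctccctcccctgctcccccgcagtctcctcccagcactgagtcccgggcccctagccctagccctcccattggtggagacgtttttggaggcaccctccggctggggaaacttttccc
The marked letters begin 228 bases before the start. The other motifs searched on both strands, which were the TATA box TATAAA, the E-box CACCTG, the AP-1 motif TGACTCA and the TEAD core GGAATG, had no match in this window.

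**Figure D3:**
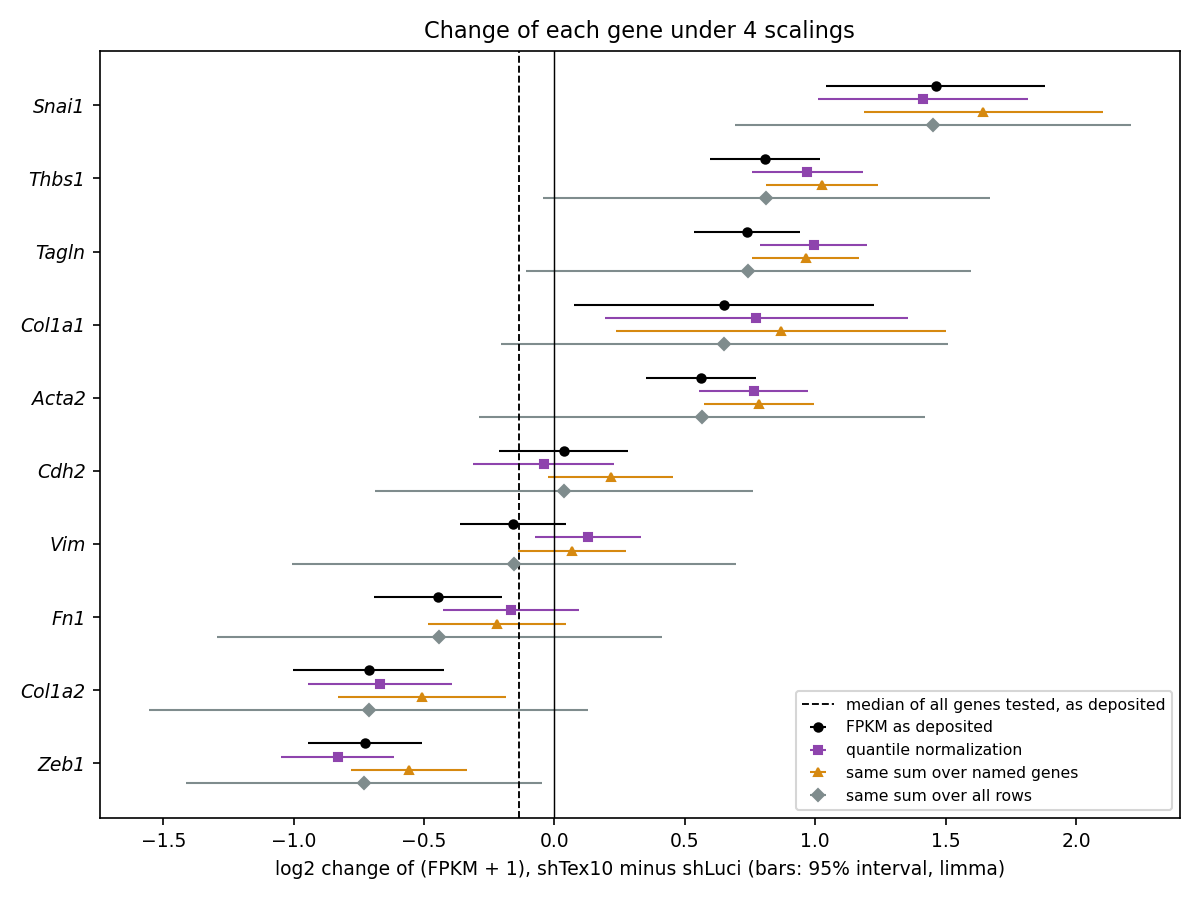
Log2 change of (FPKM + 1), shTex10 minus shLuci, for the 10 genes with 95% intervals from limma, under FPKM as deposited and 3 other scalings; the dashed line is the median of all genes tested. Snai1, Thbs1, Tagln and Acta2 lie above 0 and Zeb1 and Col1a2 below it under all 4, while the intervals are widest after the all-row rescaling.

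The all-row rescaling left the log2 changes near their values as deposited but enlarged the errors. The sums it equalised were 1798450 and 1722510 in the shTex10 libraries and 1403760 and 2224870 in the shLuci libraries. Equalising them put a gap between the shLuci libraries into every gene, and limma then gave every gene the error of the trend over all genes. Of the 7 calls among the 10 genes, that of Snai1 was kept (log2 change 1.45, limma, Benjamini-Hochberg adjusted p = 0.00428), and those of Zeb1 (0.254), Thbs1 (0.358), Tagln (0.428), Col1a2 (0.449), Acta2 (0.611) and Fn1 (0.721) were lost. Unnamed rows took between 56.3% and 71.6% of that sum.

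Collagen-modifying enzymes changed in both directions, as did genes at large, with 19.8% of all genes tested called higher and 31.8% lower. Of 22 listed genes for fibrillar collagens and their processing, 15 were tested, and 5 rose, 3 fell and 7 did not pass, with a median log2 change of 0.04 against -0.14 over all genes. P4ha2, a prolyl hydroxylase subunit gene, rose to 30.2 and 25.8 FPKM in shTex10, against 11.4 and 10.6 FPKM in shLuci, while P4hb, the shared beta subunit, fell to 140.4 and 139.7 FPKM in shTex10, against 230.7 and 229.6 FPKM in shLuci. The lysyl hydroxylase genes diverged in the same manner. Plod2 rose 1.98-fold, to 62.6 ± 6.95 FPKM in shTex10, against 31.5 ± 3.10 FPKM in shLuci, and Plod1 fell to 5.06 ± 0.735 FPKM in shTex10, against 10.8 ± 0.562 FPKM in shLuci (n = 2 each). The other risers were Col2a1, the cartilage collagen gene (log2 change 1.21), Serpinh1, the collagen chaperone gene (0.73), and Col5a2 (0.39). Loxl2, a lysyl oxidase-like gene, was the other to fall (-0.32), but its call was lost after the named-gene rescaling (limma, Benjamini-Hochberg adjusted p = 0.330). With single libraries left out its log2 change ran from -0.35 to -0.28. The log2 change of Col5a2 was 0.34 without shTex10 replicate 1 and 0.37 without shLuci replicate 2.

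Many matricellular genes rose, as Thbs1 did. Of 20 listed matrix glycoprotein genes, 13 were tested, and 7 rose, 2 fell and 4 did not pass, with a median log2 change of 0.45. Shares over all genes tested were 19.8% higher and 31.8% lower. Cyr61 (Ccn1), which encodes a secreted integrin ligand and is a known target of YAP, rose to 193.9 and 186.3 FPKM in shTex10, against 31.0 and 30.5 FPKM in shLuci, a 6.17-fold difference. Ctgf (Ccn2), its close relative, rose to 145.9 and 139.7 FPKM in shTex10, against 53.4 and 47.9 FPKM in shLuci. Sparc, a collagen-binding protein gene, rose 1.91-fold. The 2 that fell were Tnc, the tenascin C gene, at 0.942 ± 0.00493 FPKM in shTex10 and 1.74 ± 0.0290 FPKM in shLuci, which reached the filter only through shLuci, and Fbln1, a fibulin gene (log2 change -0.59). Fbln1 lost its call after the named-gene rescaling (limma, Benjamini-Hochberg adjusted p = 0.0630).

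**Figure D4:**
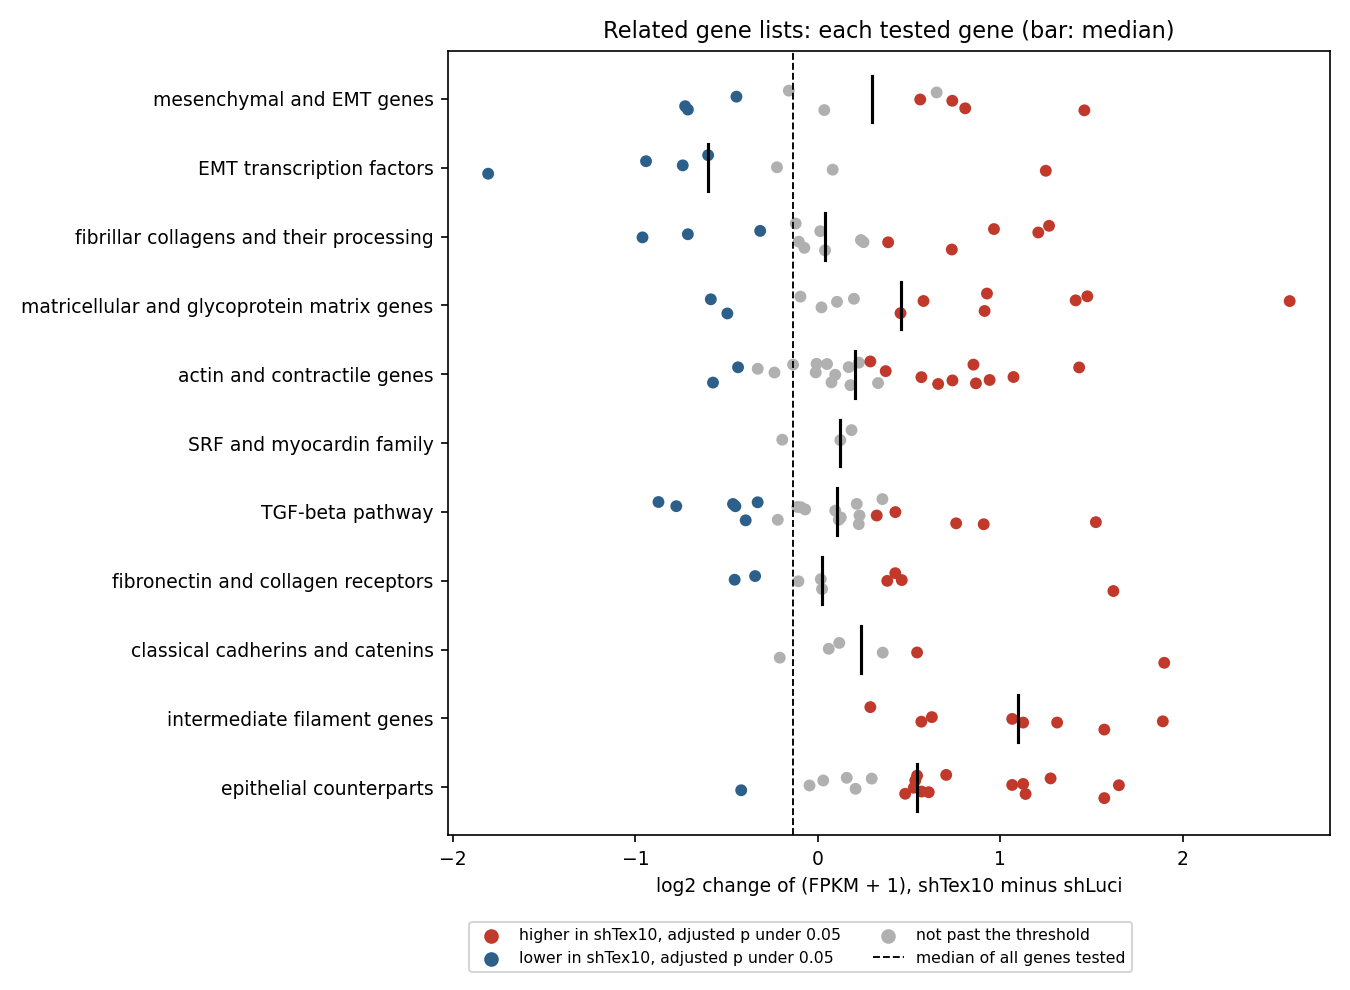
Log2 change of (FPKM + 1), shTex10 minus shLuci, of each tested gene in the 10 followed genes and in 10 related lists, coloured by the test's call, with a bar at the median of each row and a dashed line at the median of all genes tested. Tested intermediate filament genes lie above 0 without exception, while the EMT transcription factors have a median of -0.60.

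Receptors of these matrix proteins also changed in both directions, beside 19.8% higher and 31.8% lower among all genes tested. Of 15 listed fibronectin, collagen and thrombospondin receptors, 9 were tested, and 4 rose, 2 fell and 3 did not pass (median log2 change 0.02). Ddr1, a collagen receptor kinase gene of epithelia, rose to 44.2 and 32.9 FPKM in shTex10, against 13.9 and 9.88 FPKM in shLuci. Itgav and Itgb5, integrin subunit genes, and Cd44 rose by 0.46, 0.38 and 0.42 on the log2 scale. Itga5, which pairs with beta1 integrin as the fibronectin receptor, fell by 0.34 and Cd47, a thrombospondin receptor gene, fell by 0.46 on that scale. The Fn1/Itga5 ratio was 6.86 and 6.71 in shTex10 and 7.52 and 6.91 in shLuci, a small difference (log2 -0.09) without overlap. With a library left out, log2 changes of Itga5 were -0.28 (shTex10 replicate 2), -0.37 (shLuci replicate 1) and -0.32 (shLuci replicate 2). That of Cd47 was -0.35 without shTex10 replicate 2, and that of Cd44 was 0.35 without shLuci replicate 2. Itgb5 changed by 0.32 without shTex10 replicate 1 and by 0.32 without shLuci replicate 2. The named-gene rescaling ended the calls of Itga5 (limma, Benjamini-Hochberg adjusted p = 0.326) and Cd47 (0.0934), and quantile normalization those of Itga5 (0.0899) and Cd44 (0.0619).

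The TGF-beta pathway induces EMT genes in many cells. Of 25 listed genes, 22 were tested, and 5 rose, 6 fell and 11 did not pass (median log2 change 0.11), shares near the 19.8% higher and 31.8% lower of all genes tested. Eng, the endoglin co-receptor gene, rose to 41.1 and 34.9 FPKM in shTex10, against 12.9 and 12.1 FPKM in shLuci. Ltbp2, a gene of the latent TGF-beta binding protein family, and Tgfbr3, the betaglycan gene, also rose, at 1.68 ± 0.135 and 1.76 ± 0.00198 FPKM in shTex10 and 0.424 ± 0.0458 and 0.629 ± 0.0547 FPKM in shLuci (n = 2 each), and both reached the filter only through shTex10. Smad3, a signal transducer gene, rose by 0.43 and Smurf1, a ubiquitin ligase gene, by 0.32 on the log2 scale. Acvr2b, an activin receptor gene, fell to 6.05 and 4.80 FPKM in shTex10, against 11.6 and 9.89 FPKM in shLuci. Smad7, an inhibitor gene that the pathway itself induces, fell to 24.5 and 22.7 FPKM in shTex10, against 46.6 and 36.3 FPKM in shLuci. Ltbp1, of the same family as Ltbp2, fell to 0.853 and 0.869 FPKM in shTex10, against 1.53 and 1.56 FPKM in shLuci, and reached the filter only through shLuci. Tgfb1, the ligand gene, Acvr1b, an activin receptor gene, and Smad4, the common SMAD gene, fell by 0.47, 0.40 and 0.33 on the log2 scale. All 3 lost their calls after the named-gene rescaling (limma, Benjamini-Hochberg adjusted p = 0.144, 0.196 and 0.402 in that order). With a library left out, log2 changes of Tgfb1 were -0.33 (shTex10 replicate 2) and -0.38 (shLuci replicate 1). Under the same omissions those of Acvr1b were -0.31 and -0.36. Smad4 changed by -0.25 without shTex10 replicate 1 and by -0.24 without shLuci replicate 2. Smad3 changed by 0.35 without shTex10 replicate 1. Smurf1 changed by 0.26 without shTex10 replicate 1, 0.35 without shLuci replicate 1 and 0.29 without shLuci replicate 2.

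Markers of cell types in which the 10 genes are usually abundant were read in the same libraries, and their part in the results was not tested. Beside the counts below, 19.8% of all genes tested were called higher and 31.8% lower. ES cell markers were abundant, as labelled: 6 genes summed to 3850 and 4236 FPKM in shTex10 and 4575 and 5033 FPKM in shLuci, with 4 of 6 lower. Most of each sum was Dppa5a, which overlapped between groups, at 2467 and 2917 FPKM in shTex10 and 2432 and 2999 FPKM in shLuci. The 4 lower genes, Pou5f1, Nanog, Zfp42 and Esrrb, kept 64.3%, 63.3%, 60.6% and 62.7% of their shLuci means. Sox2 kept 83.3% and did not pass. Fibroblast markers were low. All 12 summed to 22.52 and 18.93 FPKM in shTex10 and 18.02 and 16.46 FPKM in shLuci, and 1 of 4 tested was higher, Mmp2, a matrix protease gene, at 12.3 and 10.2 FPKM in shTex10 and 8.75 and 7.86 FPKM in shLuci. The log2 change of Mmp2 was 0.39 as deposited, 0.27 without shTex10 replicate 1 and 0.33 without shLuci replicate 2. Its call was lost when no filter was applied (limma, Benjamini-Hochberg adjusted p = 0.0702). Fap, the gene of fibroblast activation protein, was listed at 0 in both shTex10 libraries and at 0.01 and 0 FPKM in shLuci. Also below the filter, Pdgfra, Pdgfrb, Col3a1 and Lum lay higher in both shTex10 libraries, Twist2 and Prrx1 lay lower, and Dcn overlapped. Pdgfra averaged 0.621 FPKM in shTex10 and 0.301 FPKM in shLuci, and Prrx1 0.0844 and 0.242 FPKM in that order. The 7 smooth muscle markers summed to 25.3 and 25.3 FPKM in shTex10 and 21.6 and 20.9 FPKM in shLuci, with 3 of 4 tested higher, Lmod1 among them, 1 lower, and Myocd near 0. Myh11 and Actg2, also below the filter, lay higher in both shTex10 libraries. Their means were 0.491 and 0.801 FPKM in shTex10 and 0.153 and 0.270 FPKM in shLuci. Early mesoderm markers, 9 genes, summed to 25.2 and 21.8 FPKM in shTex10 and 12.3 and 10.6 FPKM in shLuci, and most of that difference was Hand1, a gene listed also for trophoblast, at 17.3 and 14.8 FPKM in shTex10 and 6.51 and 5.47 FPKM in shLuci. The other 8 summed to 7.91 and 6.98 FPKM in shTex10 and 5.81 and 5.13 FPKM in shLuci. The 3 tested of all 9, Hand1, Eomes and Mesp2, were higher, Mesp2 having reached the filter only through shTex10. Among those below the filter, Mixl1, Tbx6 and Kdr averaged 0.0579, 0.0950 and 0.784 FPKM in shTex10 and 0.2996, 0.196 and 0.919 FPKM in shLuci, and T averaged 0.983 FPKM in shTex10 and 0.945 FPKM in shLuci. Trophoblast markers, 8 genes, summed to 86.4 and 84.6 FPKM in shTex10 and 32.7 and 31.2 FPKM in shLuci, and the 6 tested were higher, Plac1 having reached the filter only through shTex10. Without Hand1 the sums were 69.1 and 69.8 FPKM in shTex10 and 26.2 and 25.8 FPKM in shLuci. The 10 parietal endoderm markers summed to 411.4 and 396.0 FPKM in shTex10 and 325.9 and 304.8 FPKM in shLuci, with 2 of 8 tested higher and 2 lower, but Sparc alone set that direction. The other 9 summed to 186.0 and 164.4 FPKM in shTex10 and 202.1 and 189.2 FPKM in shLuci, and Lama1, a laminin gene, fell to 2.47 and 2.29 FPKM in shTex10, against 9.17 and 9.22 FPKM in shLuci.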

How the data were processed

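The authors deposited FPKM values, 1 table per library without pooling, with 30640 rows each, of which 23311 name a gene. Build mm9 and the tools Cufflinks 2.1.1, Bowtie2 2.1.0 and TopHat2 2.0.10 come from the submitters' processing notes. How each was run, which annotation served and whether strand was used is not given in the sources used here. Counts cannot be recovered, so no counting intervals are given. Rows sharing a name were summed, which gave 22739 genes. limma 3.58.1 in R 4.3.3 was run on log2(FPKM + 1) for genes averaging 1 FPKM or more, with a variance trend, without a replicate block, and with Benjamini-Hochberg adjustment over all 11883 genes. The script was tested on simulated data. Relative depth was the most frequent ratio, over row lengths, of the smallest non-zero FPKM of unnamed rows. Alternatives were 2 other pseudocounts, 2 other filters, 4 other scalings, 2 other variance models, the replicate block, the highest row per name and leaving out each library. Named beside the 10 genes were Tex10, the partners in the ratios, up to 4 genes of smallest p per list among those called with groups not overlapping, and the members of the list of 4. Some genes that this rule names are not reported here. The genes and lists were chosen with earlier results of these data known, and Tcf3, Twist1, Col2a1, Col5a2, Serpinh1, Loxl2, Tnc, Fbln1, Tpm3, Smtn, Smad3, Smad7, Smurf1, Itgb5, Klf4, Pcsk7, Rnf214, Mmp2, Fap, Myod1, Myog, Ckm, Tgfb1, Acvr1b, Smad4, Ltbp1, Hand1, Mesp2, Plac1, Lama1, Mixl1, Tbx6, Kdr, T, Eomes, Dppa5a, Pou5f1, Nanog, Zfp42, Esrrb and Sox2 were named after their values were seen. So were the markers Pdgfra, Pdgfrb, Col3a1, Lum, Twist2, Prrx1, Dcn, Myh11 and Actg2. Promoters came from RefSeq's GRCm38 windows, which held 4 of the 10 genes, while the files use mm9.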

Additional observations from a re-analysis of the deposited data

Results flagged for a closer look

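A row with no gene name at the Snai1 locus, outside the genes tested, was higher in both shTex10 libraries than in both shLuci libraries. It measured 1.04 and 1.18 FPKM in shTex10, against 0.253 and 0.232 FPKM in shLuci, with means of 1.11 FPKM in shTex10 and 0.242 FPKM in shLuci. The files give the row and Snai1 the same span and do not say how reads were divided between them.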

How the results depend on the processing

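Among the 10 genes, Snai1 kept its call under all 16 alternatives, with log2 changes from 1.27 to 1.76. Zeb1, Thbs1, Tagln, Acta2 and Col1a2 kept theirs under all that tested them except the all-row rescaling. As deposited, 2350 genes were called higher and 3779 lower, 50 and 20 of them in the related lists. The all-row rescaling called 655 higher and 237 lower, 1 of the 10 genes higher and 0 lower, and 17 and 1 genes of the related lists. The named-gene rescaling called 1906 genes lower, 10 of them in the related lists, and gave the 10 genes a median log2 change of 0.50. Requiring a mean of 5 FPKM called 1292 genes higher and gave a median of 0.61, since Zeb1 and Cdh2 were then not tested. Signs turned for Vim under quantile normalization (0.13) and the named-gene rescaling (0.0675), for Cdh2 (-0.0413) and Twist1 (-0.0365) under quantile normalization, and for Srf under the named-gene rescaling (0.021); the cause was not tested. With single libraries left out, log2 changes ran between -0.0417 and 0.11 for Cdh2, -0.40 and 0.0151 for Srf, -0.0057 and 0.25 for Mkl1, and -0.0048 and 0.17 for Twist1. Of 1018 pairs of another named gene and an alternative, 918 gave the same call, 89 lost it (38 of them under the all-row rescaling), 6 gained it and 5 changed sign. With no filter, Mmp2, Smurf1, Tgfb1, Smad4 and Loxl2 lost their calls (limma, Benjamini-Hochberg adjusted p = 0.0702, 0.0528, 0.0650, 0.0703 and 0.0574). Median scaling ended those of Itga5, Loxl2 and Smad4 (0.0549, 0.0591 and 0.108). Replicate numbers are shared between the groups, but no label says what they mark; deviations of same-numbered libraries correlated at r = 0.33 over 11883 genes. A fit with the replicate block called 3210 genes higher and 5709 lower, and 5 of the 10 genes higher and 4 lower, adding Col1a1 (adjusted p = 7.88e-05, with replicate 1 over replicate 2 at 1.45 in shTex10 and 1.47 in shLuci) and Vim, and it called Zeb2 lower. That fit also called Srf lower (log2 change -0.19, limma, Benjamini-Hochberg adjusted p = 0.00848) and Actb higher (0.17, 0.0321). Depth is known only roughly, so what it limits for low genes such as Zeb1 could not be given.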

Other observations

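Ckm, the muscle creatine kinase gene and 1 of 8 listed markers of cardiac and skeletal muscle, measured 7.63 and 6.71 FPKM in shTex10, against 0.331 and 0.191 FPKM in shLuci (log2 change 2.70, SE 0.11, limma, Benjamini-Hochberg adjusted p = 0.000153). It reached the filter only through shTex10. The myogenic factor genes Myod1 and Myog stayed low, at 0.0775 and 0.0358 FPKM and at 0.582 and 0.440 FPKM in shTex10, against 0.0199 and 0 FPKM and 0.214 and 0.227 FPKM in shLuci. The 8 markers summed to 20.6 and 18.7 FPKM in shTex10 and 12.2 and 9.01 FPKM in shLuci. Of these, 1 of 2 tested was higher, against 19.8% of all genes tested.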
